A study of Glycine max with 20 samples.

Results

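WRKY transcription factors are plant regulators that carry 1 or more WRKY domains, a fold held together by zinc that binds the W-box element in the promoters of target genes. In Arabidopsis they are best known from responses to pathogens, to salicylic acid and to abiotic stress, and from senescence. A few act in development, among them TRANSPARENT TESTA GLABRA2 (TTG2, WRKY44), which is needed for trichomes and for the tannins and mucilage of the seed coat. The family is divided by domain structure into group I, groups IIa to IIe and group III. The members were all Glyma models annotated with the WRKY domain (PF03106), taken as 1 model per gene, the one with the highest mean RPKM over the 20 libraries. This gave 185 genes of 56044 (296 models of 88647). The symbol of the best Arabidopsis hit in the annotation is used here as a type (WRKY23-type), which is a statement on likeness of sequence and not on function in soybean.

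RNA-Seq was carried out on seed coats of 2 soybean isolines. UC7 is Clark 63, the standard line with a black hilum (i-i R T Mi g). UC413 is the minute hilum line (i-i R t mi G), for which the recessive mi allele was brought into Clark 63 by 6 backcrosses. It also carries the recessive t and the dominant G allele, so mi, t, G and any linked DNA cannot be told apart in this comparison. The extended hilum region (EH, the hilum with a small area around it) was dissected from seeds of 10 to 25 mg (EH10), 25 to 50 mg (EH25) and 50 to 100 mg (EH50), with 2 libraries for each isoline and stage. EH100 (100 to 200 mg seeds) and whole seed coats at the first 3 weights (WS10, WS25 and WS50) had 1 library for each isoline. All plants were grown in the greenhouse without treatment, and both lines carry i-i and R. The replicates are described as independent, and no source used here says how many plants stand behind a library.

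Levels are given as scaled RPKM, the deposited RPKM divided by a size factor per library. For a fold change 0.25 was added before taking log2, which makes the fold changes of low genes smaller than the ratios of their levels. A gene is called when its adjusted p (limma, Benjamini-Hochberg over all models tested) was under 0.05. The libraries held 91768975 to 128803969 alignments, so 3 alignments to a transcript of 1 kb correspond to 0.0233 to 0.0327 RPKM. The UC7 EH libraries stood apart in scale. In the 6 of EH10 to EH50 models of the ribosomal RNA genes took 3.8% to 44.4% of the alignments, most in the 2 EH10 libraries (44.4% and 24.6%), against 0.386% to 1.03% in the 6 of UC413, and the size factors were 0.574 to 1.023, against 1.15 to 1.24. This share moves with the isoline, and its part in the differences between the isolines was not tested. In the RPKM as deposited the median of all genes (UC413 over UC7, log2) was 0.65, 0.27 and 0.18 for EH10, EH25 and EH50, and all changes below are relative to the scaled values, where it was -0.08, -0.07 and -0.08. UC7 EH25 replicate 1 stood apart from replicate 2 for the WRKY genes, with a correlation across the tested members of 0.801 where the other 5 replicate pairs had 0.963 to 0.977. Seed coat markers (12 genes, such as BAN-type and TT12-type) summed to 509.6 to 996 scaled RPKM in every library and none was at 0, and 36 genes of endosperm marker types summed to 0.214 to 2.05. Embryo or cotyledon markers (33 genes of storage protein, oleosin and embryo regulator types) summed to 8.16 to 117.5 in the 12 EH libraries of EH10 to EH50 and reached 919.7 in UC7 EH100 and 287.2 in UC413 EH100. These are whole tissue samples, so fewer cells of a type and less RNA per cell cannot be told apart.

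Most WRKY genes were low in the seed coat. Of the 185 members 113 were above 0 in all 20 libraries, 13 were at 0 in every library, and 66 had a mean of at least 1 scaled RPKM. The filter for testing, an RPKM of 1 or more in 2 or more libraries, was passed by 70 members in the 12 EH libraries of EH10 to EH50 and by 82 when the 6 whole seed coat libraries were added. The members that were too low to be tested included the 11 WRKY72-type, 5 WRKY75-type and 4 WRKY13-type genes. Group I held 36 genes and 40.7% of the summed mean level, and group IId held 17 genes and 27.9%, of which 16 also had the plant zinc cluster domain (PF10533) that marks this group. Group IIc had 36 genes and 11.9%, IIa 13 and 7.23%, III 24 and 6.77%, IIe 22 and 3.41%, and IIb 33 and 1.71%. For 4 genes the best hit had no WRKY number, and 1 of them also had an NB-ARC domain (PF00931), which is typical of disease resistance proteins.

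The level of the family rested on a few genes. Glyma.02G141000 (WRKY21-type, IId) had the highest mean, 37.0 scaled RPKM, and varied little, with 27.4 as its lowest and 59.3 as its highest library. Glyma.19G177400 (WRKY3-type, group I) followed with 35.2. In Arabidopsis WRKY3 and WRKY4 act in resistance to fungi that kill plant tissue. The third was Glyma.03G176600, the only TTG2-type gene, with 22.8. These 3 genes made up 23.3% of the summed mean level of the family and the 10 highest genes 44.9%. The other 7 were Glyma.10G032900 (WRKY21-type, 17.1), Glyma.14G200200 (WRKY33-type, 14.5), Glyma.07G023300 (WRKY40-type, 12.8), Glyma.03G220800 (WRKY23-type, 12.2), Glyma.09G061900 (WRKY11-type, 10.97), Glyma.08G218600 (WRKY40-type, 10.5) and Glyma.19G217800 (WRKY23-type, 10.1). RPKM is per length of transcript, so these levels can be set side by side as far as length goes. A read could align to up to 25 models, so near-identical copies can share reads in these levels and shares. The 2 WRKY40-type genes in this list owed their mean to 1 library in part, since UC7 EH100 had 64.4 and 57.5 where their other 19 libraries lay between 2.62 and 21.6.

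**Figure D1:**
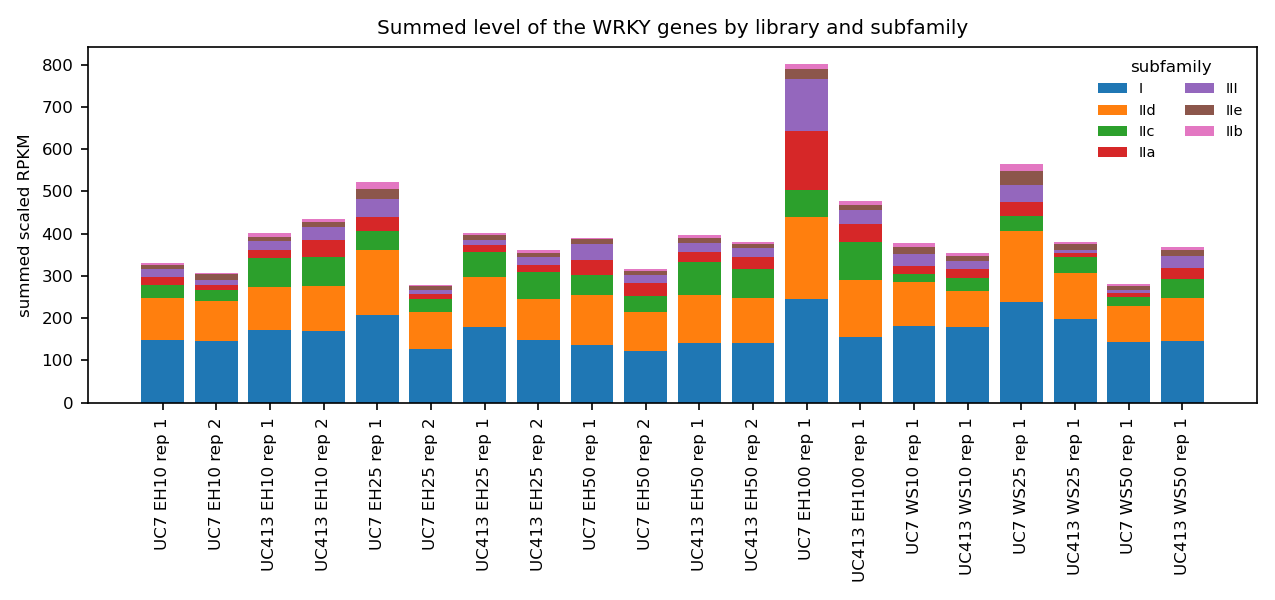
Summed scaled RPKM of the WRKY genes (vertical axis, from 0) in each of the 20 libraries, with the share of each subfamily in colour; the 4 genes with no WRKY number are not drawn. UC7 EH100 (802.4), UC7 WS25 (566.3) and UC7 EH25 replicate 1 (522.3) are the highest bars, and groups I and IId make up the largest part of every bar.

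The main comparison asked which WRKY genes differed between the extended hilum of the minute hilum isoline and that of the standard isoline at the same seed weight. At EH10, 11 of the 70 tested members (15.7%) were higher in UC413, where 3.42% of all genes tested were, and 2 (2.86%) were higher in UC7, where 3.41% of all genes were. At EH25 it was 7 (10%) against 1.41% of all genes, and 0 against 1.14%, with 11 members lower at an unadjusted p under 0.05. With limma-voom none was lower either. At EH50 it was 9 (12.9%) against 3.45%, and 1 (1.43%) against 4.83%. Some of these members could be tested only because they were high in UC413. Of the 11, 7 and 9 higher members, 5, 4 and 5 reached the filter in UC413 libraries alone, so their counts are a description and no evidence that the family as a whole was higher. The median log2 difference of the tested members was 0.17, -0.03 and -0.06 at the 3 stages. Without UC7 EH25 replicate 1 the median at EH25 was 0.22, and without replicate 2 it was -0.22. With RPKM as deposited 50, 9 and 11 members were higher at the 3 stages and 0 were lower at each. With the replicate number as a block it was 6 and 1 at EH25, where Glyma.03G220800 was lost (adjusted p = 0.057) and Glyma.01G056800 was called as higher in UC7 (adjusted p = 0.0381).

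The counts also depended on single libraries. At EH10 the 11 higher and 2 lower members became 5 and 0 when either UC413 EH10 library was left out, 7 and 1 when UC7 EH10 replicate 1 was, and 8 and 1 when UC7 EH10 replicate 2 was. At EH25 the 7 became 3 and 2 when UC413 EH25 replicate 1 or 2 was left out and 11 when UC7 EH25 replicate 1 was, and 18 members were lower in UC413 when UC7 EH25 replicate 2 was left out and UC7 was represented by replicate 1 alone. At EH50 the 9 became 15 without either UC7 EH25 library, 4 without either UC7 EH50 library, and 2 and 5 without UC413 EH50 replicates 1 and 2, and the 1 lower member became 5 without either UC7 EH25 library and 0 without any library of EH50, UC413 EH10 or UC413 EH25. A group with 1 library left was assumed to vary like the other groups.

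Among the subfamilies the members higher in UC413 lay mostly in group IIc, where 6, 6 and 5 of 11 tested genes were higher at the 3 stages. Every one of these was WRKY23-type. Of these 6 genes Glyma.07G238000, Glyma.09G034300 and Glyma.17G035400 reached the filter in UC413 libraries alone, so the count for this group is a description too. WRKY23 of Arabidopsis is induced by auxin and acts in root development and in flavonol biosynthesis. In group I, the largest among those tested, 1 of 22 members was higher at EH10 and at EH50 (the TTG2-type gene), and in group IId 1 of 14 at EH10. The other groups had at most 2 higher members at a stage, and in group IIa (4 tested) and group IIe (6 tested) none was called in either direction. With the replicate block 2 genes of group IIe were called, Glyma.09G254800 as lower in UC413 at EH10 (adjusted p = 0.0404) and Glyma.05G160800 as higher at EH50 (0.0494), and in group I also Glyma.19G177400 as higher at EH10 (0.0336) and EH50 (0.0271) and Glyma.14G006800 as higher at EH50 (0.0425). The median of group IIc was 1.18, 0.92 and 0.92 at EH10, EH25 and EH50, and that of group I 0.08, 0.04 and 0.10. Group III had medians of 0.16, -1.02 and -0.76, with no member lower at the threshold at any stage. In UC7 EH25, 7 of 8 members of group III were at least 2-fold higher in replicate 1 than in replicate 2, where 6.33% of all genes were. This was not particular to group III, since groups IIa, IIb, IIe, IId, I and IIc had 3 of 4, 3 of 3, 5 of 7, 7 of 14, 7 of 27 and 1 of 8. The EH25 median of group III was -0.29 without replicate 1 and -1.70 without replicate 2.

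**Figure D2:**
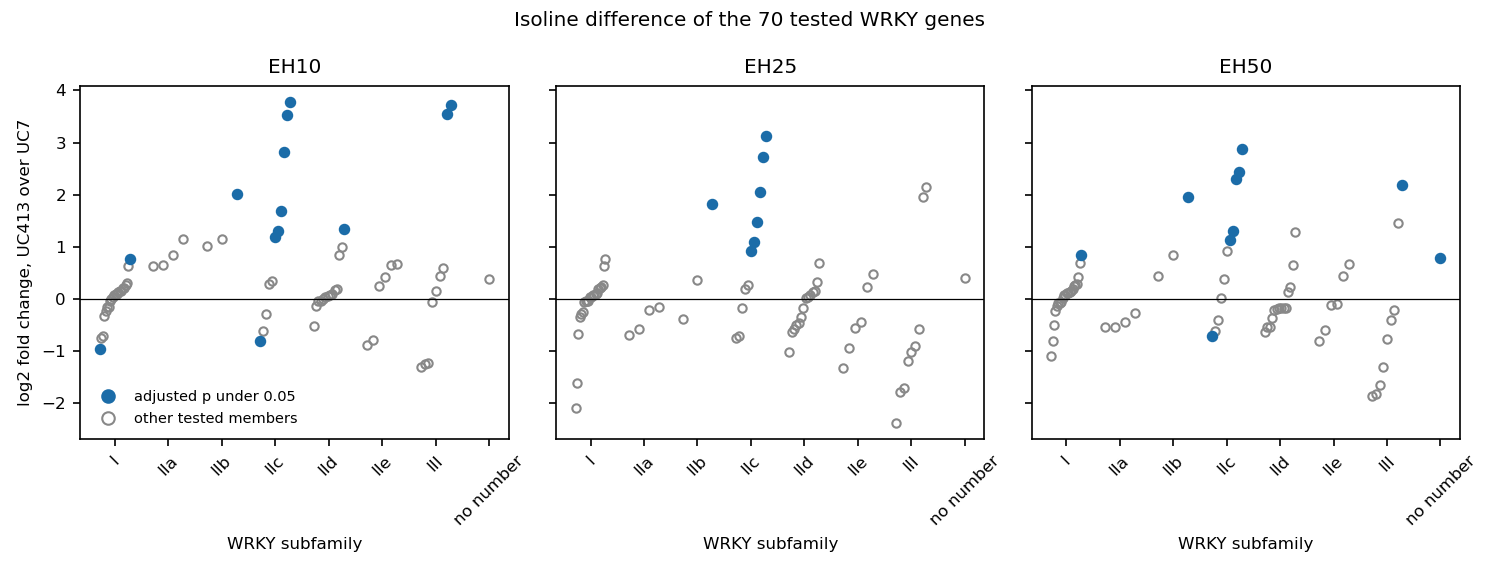
log2 fold change of UC413 over UC7 (vertical axis) for the 70 tested WRKY genes at EH10, EH25 and EH50, placed by subfamily (horizontal axis). Each point is 1 gene, and filled points have an adjusted p under 0.05. The filled points above 0 are mainly group IIc genes, and few filled points lie below 0.

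All 7 WRKY23-type genes of the genome annotation were tested, and all 7 had a higher mean in UC413 at each of the 3 stages. Glyma.17G035400 showed one of the largest differences. At EH10 it had 5.79 and 5.40 scaled RPKM in UC413 and 0.296 and 0.218 in UC7. At EH25 the values were 3.99 and 4.27 against 0.309 and 0.202, and at EH50 3.88 and 2.51 against 0.213 and 0.206. No UC7 library of the extended hilum came near a UC413 library, and the difference was 3.53 (SE 0.20, adjusted p = 5.59e-05) at EH10, 3.12 (SE 0.20, adjusted p = 0.000161) at EH25 and 2.88 (SE 0.20, adjusted p = 0.000378) at EH50 on the log2 scale.

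Glyma.07G238000 had nearly the same profile. It had 6.10 and 6.75 in UC413 against 0.243 and 0.230 in UC7 at EH10, 3.20 and 4.32 against 0.450 and 0.263 at EH25, and 2.78 and 2.21 against 0.249 and 0.259 at EH50. The levels in UC413 fell with seed weight while those in UC7 stayed under 0.5 throughout, and the log2 difference was 3.78 (SE 0.20, adjusted p = 4.53e-05), 2.73 (SE 0.20, adjusted p = 0.000351) and 2.44 (SE 0.20, adjusted p = 0.000869). These 2 genes were called at all 3 stages under every alternative and without any 1 library. The authors allowed a read to align to up to 25 models, so near-identical copies can share reads, and how far the values of the 2 genes are separate was not tested.

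Another 3 members of this type were higher in UC413 from a higher level in UC7. Glyma.02G010900 had 10.3 and 11.02 in UC413 and 1.498 and 1.12 in UC7 at EH10, a log2 difference of 2.82 (SE 0.31, adjusted p = 0.00115), and was called at EH25 (2.05, adjusted p = 0.0107) and EH50 (2.31, adjusted p = 0.00603). In UC7 EH25 its replicate 1 had 2.99 and replicate 2 had 1.21, both under the 9.31 and 8.24 of UC413. Glyma.10G011300 had 10.4 and 9.32 against 4.08 and 3.56 at EH10, and differed by 1.31, 1.09 and 1.31 at the 3 stages (SE 0.18, adjusted p = 0.00304, 0.0145 and 0.00638). Glyma.03G220800, the highest of the type, had 14.8 and 15.3 against 7.43 and 5.67 at EH10 and 20.3 and 20.0 against 9.31 and 8.83 at EH50, which gave 1.18 and 1.13 (SE 0.18, adjusted p = 0.00664 and 0.0114). Its call at EH25 (0.92, adjusted p = 0.0332) was lost without any 1 of 9 libraries, with adjusted p up to 0.194, and with the kit as a covariate or the replicate block. The remaining calls of these 3 genes were lost only without a library of the same stage, UC413 EH25 replicates 1 and 2 (Glyma.02G010900 and Glyma.10G011300 at EH25), UC413 EH50 replicate 1 (the same genes at EH50), UC413 EH10 replicates 1 and 2 (Glyma.03G220800 at EH10) and any EH50 library (Glyma.03G220800 at EH50), with adjusted p no higher than 0.0963.

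Glyma.09G034300 was the lowest gene of the type. It had 0.844 and 0.843 in UC413 and 0.093 and 0.085 in UC7 at EH10, 0.509 and 0.759 against 0.050 and 0.077 at EH25, and 0.263 and 0.266 against 0.010 and 0.032 at EH50. The isolines did not overlap at any stage, and the difference was called at EH10 (1.69, SE 0.25, adjusted p = 0.00563) and EH25 (1.48, adjusted p = 0.018) and missed the threshold at EH50 (0.92, adjusted p = 0.0536). All its UC7 levels lay under the 0.25 added before log2, so these differences are smaller than the ratios of its levels. The call of Glyma.09G034300 was lost at EH10 without either UC413 EH10 library (adjusted p up to 0.0686) and at EH25 without UC413 EH25 replicate 2 (adjusted p = 0.134). Glyma.19G217800 was the 1 WRKY23-type gene not called at any stage. It had 10.2 and 10.4 in UC413 and 8.65 and 7.47 in UC7 at EH10, and differed by 0.35, 0.27 and 0.38 at EH10, EH25 and EH50 (SE 0.16, adjusted p = 0.203, 0.376 and 0.15).

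**Figure D3:**
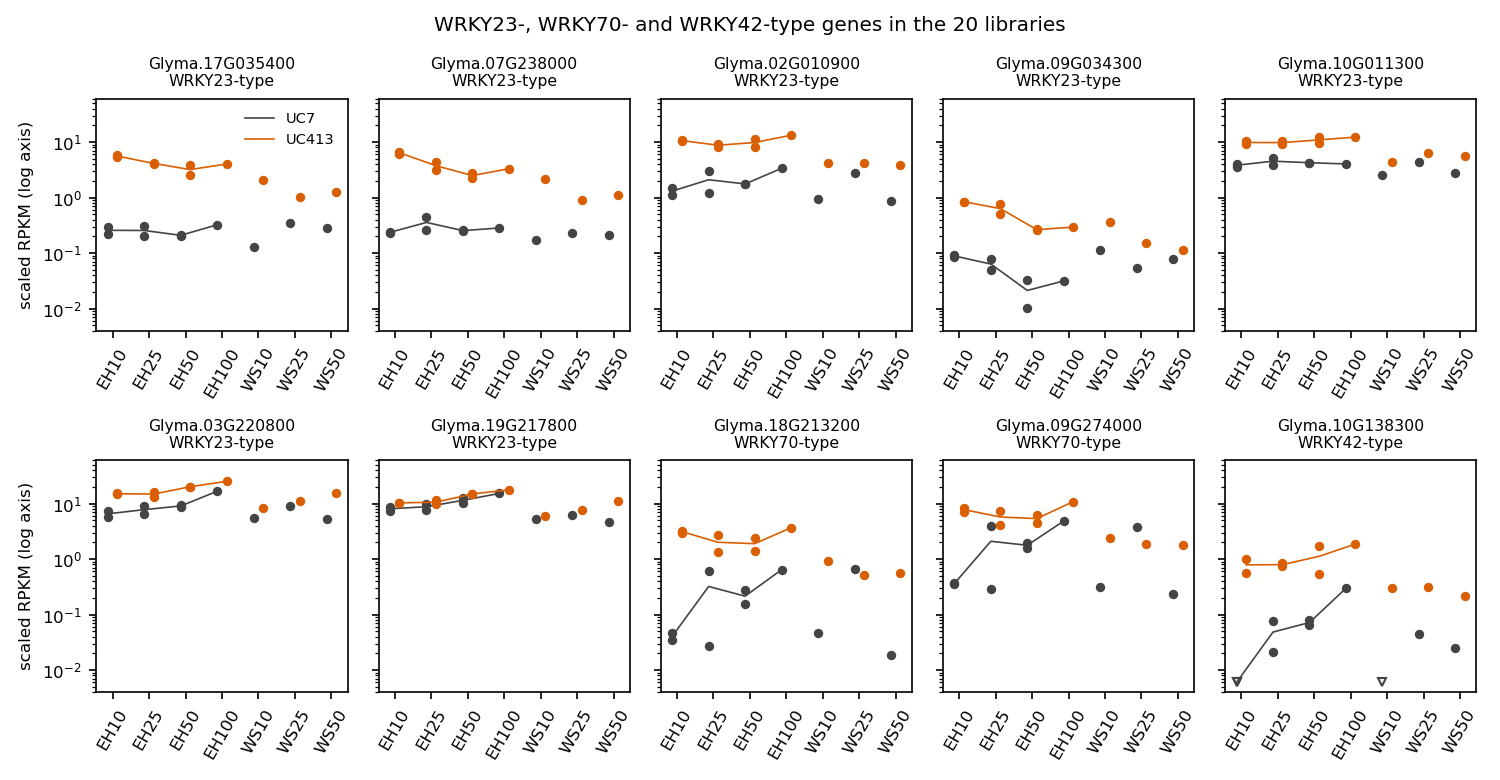
Scaled RPKM (log axis) of the 7 WRKY23-type genes, the 2 tested WRKY70-type genes and the tested WRKY42-type gene. Each point is 1 library, UC7 in grey and UC413 in orange, lines join the means of the EH stages, and open triangles mark libraries at 0. Glyma.17G035400 and Glyma.07G238000 are separated by isoline at every stage and in the whole seed coats, while Glyma.19G217800 is nearly the same in both isolines.

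Of 12 WRKY70-type genes (group III) 2 were high enough to be tested, and both were higher in UC413 at EH10. Of these, Glyma.18G213200 reached the filter in UC413 libraries alone, so the count is a description. In Arabidopsis WRKY70 is a node between salicylic acid and jasmonate signalling in defence. Glyma.18G213200 had 3.262 and 3 in UC413 and 0.046 and 0.035 in UC7, the latter from 4 alignments in each library. The log2 difference was 3.54 (SE 0.48, adjusted p = 0.00333), and the call held without each library in turn. Glyma.09G274000 had 7.19 and 8.42 against 0.374 and 0.351, a log2 difference of 3.71 (SE 0.70, adjusted p = 0.0166), which was lost without any 1 of the 4 EH10 libraries (adjusted p up to 0.121).

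At EH25 both WRKY70-type genes were split within UC7. Glyma.09G274000 had 3.90 in UC7 EH25 replicate 1 and 0.290 in replicate 2, against 4.17 and 7.29 in UC413, and Glyma.18G213200 had 0.616 and 0.027 against 1.35 and 2.68. Neither was called at EH25 (adjusted p = 0.178 and 0.0546), and for each gene both UC413 values lay above both UC7 values. At EH50 Glyma.18G213200 had 2.41 and 1.38 against 0.277 and 0.152 and was called (2.18, SE 0.48, adjusted p = 0.0284), and lost without any EH50 or UC413 EH10 library (adjusted p up to 0.172) and with limma-voom. Glyma.09G274000 had 6.30 and 4.42 against 1.61 and 1.93, a difference of 1.46 that was not called (adjusted p = 0.212).

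Glyma.10G138300 was the only one of 9 WRKY42-type genes (group IIb) to be tested. It reached the filter in UC413 libraries alone, so its calls are a description. WRKY42 takes part in phosphate homeostasis in Arabidopsis. The gene was at 0 in both UC7 EH10 libraries and had 1.01 and 0.560 in UC413. Against 3 alignments per UC7 library, which correspond to a mean of 0.0178 scaled RPKM, its mean was at least 44.3-fold higher in UC413, and the test gave an adjusted p of 0.0194. At EH25 the values were 0.838 and 0.750 against 0.076 and 0.021 (adjusted p = 0.0492), and at EH50 1.70 and 0.542 against 0.078 and 0.066 (adjusted p = 0.0226). The call at EH25 held in 2 of 12 fits with a library left out (adjusted p up to 0.18) and was lost with a pseudocount of 1, without the filter and with limma-voom, the call at EH10 was lost without any EH10 library (up to 0.14) and with a pseudocount of 1, and the call at EH50 without UC413 EH50 replicate 1 or either UC7 EH50 library (up to 0.147).

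The TTG2-type gene Glyma.03G176600 was the highest of the called members. It had 33.2 and 31.4 in UC413 and 15.7 and 22.4 in UC7 at EH10, 34.4 and 26.7 against 18.8 and 16.8 at EH25, and 20.7 and 21.2 against 12.5 and 10.6 at EH50. UC413 was above UC7 in every library of these stages, by a factor of less than 2 in the fitted means. The log2 difference was 0.77 (SE 0.19, adjusted p = 0.0434) at EH10, 0.76 (adjusted p = 0.0722) at EH25 and 0.85 (adjusted p = 0.0286) at EH50. The call at EH10 was lost without any EH50 library, UC7 EH10 replicate 1 or either UC413 EH10 library (adjusted p up to 0.239), with the library kit as a covariate and without the filter, and that at EH50 without any EH50 or UC413 EH10 library (up to 0.15). In the single EH100 libraries the gene was level, with 17.4 in UC7 and 16.6 in UC413.

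Genes that act with TTG2 in the Arabidopsis seed coat were few, so a count near the share of all genes (3.42%, 1.41% and 3.45% higher and 3.41%, 1.14% and 4.83% lower in UC413 at the 3 stages) is no result about them. Its regulators (TTG1-, TT2-, TT8-, GL3-, EGL3- and MYB5-types, 9 of 22 tested) had 0 called members at EH10 and EH25 and 1 lower in UC413 at EH50, while 6 of the 9 had a positive difference at each stage. The lower gene was Glyma.17G050500, a TT2-type MYB, with 1.501 and 2.65 scaled RPKM in UC413 and 6.64 and 5.53 in UC7 (log2 -1.49, adjusted p = 0.022). Of the 6 tested genes of the TT12-, AHA10- and BAN-types, which act in the making and storage of proanthocyanidins, 1 was higher at EH10 (the BAN-type Glyma.19G254600, 1.49, adjusted p = 0.01), none was called at EH25, and at EH50 that gene was higher (1.31, adjusted p = 0.0186) and 2 were lower. The lower ones were the BAN-type Glyma.08G062000, with 6.68 and 10.8 in UC413 against 116.8 and 134.8 in UC7 (-3.84, adjusted p = 0.000869), and the TT12-type Glyma.14G032400, with 0.909 and 1.79 against 7.43 and 7.33 (-2.31, adjusted p = 0.00779). At EH50 the TTG2-type gene was thus higher in UC413 while these 2 genes were lower. The other 4 of the 6 tested genes had a positive difference there, and the median of the 6 was 0.14.

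Other members called between the isolines were few. Glyma.01G189100 (WRKY15-type, a type linked to oxidative stress in Arabidopsis) had 4.27 and 4.04 against 1.46 and 1.53 at EH10, with an adjusted p of 0.0498 that rose above 0.05 when any of 10 of the 12 libraries was left out (up to 0.217), with a pseudocount of 1, without the filter, with limma-voom and with the kit as a covariate. Glyma.05G165800, with no WRKY number, had 1.66 and 1.78 against 0.817 and 0.957 at EH50 (0.79, SE 0.18, adjusted p = 0.0298, and up to 0.183 without an EH50 or UC413 EH10 library). This gene too reached the filter in UC413 libraries alone. Members higher in UC7 were the WRKY4-type Glyma.14G199800 at EH10, with 2.01 and 2.54 in UC7 and 1.08 and 1.01 in UC413 (log2 -0.95, SE 0.16, adjusted p = 0.01), and the WRKY57-type Glyma.01G056800. WRKY57 takes part in drought tolerance and in the control of leaf senescence in Arabidopsis. Glyma.01G056800 had 1.96 and 1.66 in UC7 against 0.925 and 0.928 in UC413 at EH10 (-0.80, adjusted p = 0.0303) and 2.78 and 2.02 against 1.48 and 1.24 at EH50 (-0.71, adjusted p = 0.0411). The calls of Glyma.14G199800 and Glyma.01G056800 at EH10 were lost without either UC413 EH10 library and, for the latter, either UC7 EH10 library, and that of Glyma.01G056800 at EH50 without any EH50, UC413 EH10 or UC413 EH25 library and without the filter. With RPKM as deposited none of these 3 calls held (adjusted p = 0.361 for Glyma.14G199800 and 0.651 and 0.28 for Glyma.01G056800).

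Whether the difference between the isolines changed from EH10 to EH50 was tested directly. No member was called by limma or by limma-voom, and limma called none of the 31637 genes tested (0% in each direction). At an unadjusted p under 0.05, 0 members had a larger and 4 a smaller difference at EH50. They were Glyma.07G238000, with a log2 change of the difference of -1.34 (SE 0.28, adjusted p = 0.444), Glyma.17G035400 (-0.65), the WRKY70-type Glyma.09G274000 (-2.26) and the WRKY41-type Glyma.16G026400 (-1.36), the last 3 with an adjusted p of 1.

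Other genes tied to WRKY function were read against the same shares of all genes (3.42%, 1.41% and 3.45% higher in UC413 over the 3 stages), and lists this small can hold few calls at such shares. VQ-motif proteins bind WRKY proteins and tune their activity. Of 74 genes 21 were tested, and 2, 2 and 1 of these were higher in UC413 at the 3 stages, while 1 was lower at EH50. Glyma.14G172200 was higher at all 3 stages, with 1.71 and 1.25 scaled RPKM against 0.165 and 0.125 at EH10 (log2 2.12, SE 0.23, adjusted p = 0.00115), 1.43 and 1.87 against 0.236 and 0.120 at EH25 (2.15, adjusted p = 0.00382) and 1.80 and 1.42 against 0.243 and 0.214 at EH50 (1.95, adjusted p = 0.00346). In the MAP kinase cascade that acts on WRKY33 in Arabidopsis (22 of 27 tested) only the MKK2-type Glyma.15G172600 was higher, at EH10 (1.28, adjusted p = 0.00694) and EH50 (0.83, adjusted p = 0.037), and none was lower. None of the 8 tested genes of the NPR1-, NPR3-, EDS1-, PAD4- and SAG101-types, which act in salicylic acid perception and signalling, was called at any stage, and nor was any of the 4 tested IKU1-type genes. IKU1 acts in seed size in Arabidopsis, and 4 of the 5 IKU1-type genes also belong to the VQ-motif list.

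Stage was examined within each isoline as EH50 against EH10. These comparisons share their libraries with those between the isolines. In UC7, 2 of the 70 members (2.86%) were higher at EH50, where 6.54% of all genes were, and 5 (7.14%) were lower, where 5.94% of all genes were. In UC413 it was 1 (1.43%) against 7.89%, and 7 (10%) against 8.15%. The shares of the members were thus near or under those of all genes. With RPKM as deposited the split in UC7 was 11 higher and 2 lower. The 2 UC7 EH10 libraries had the lowest size factors. Without UC7 EH25 replicate 1 the counts were 10 and 5 in UC7 and 6 and 12 in UC413, and they were the same without replicate 2. In UC7 they became 0 and 3 without UC7 EH10 replicate 2 or UC7 EH50 replicate 1, 1 and 3 without UC7 EH50 replicate 2, and 4 and 3 or 4 and 4 without UC413 EH10 replicate 1 or 2. In UC413 they became 0 and 3 without either UC413 EH10 library, 0 and 4 without UC413 EH50 replicate 1, and 1 and 3 without UC413 EH50 replicate 2.

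Both isolines shared the clearest falls. The WRKY11-type genes Glyma.17G197500 and Glyma.14G135400 belong to a type that limits basal resistance in Arabidopsis. Glyma.17G197500 went from 5.02 and 5.27 at EH10 to 2.07 and 1.79 at EH50 in UC7 (log2 -1.31, SE 0.18, adjusted p = 0.00157) and from 5.80 and 5.86 to 1.49 and 1.86 in UC413 (-1.67, SE 0.18, adjusted p = 0.000424), with values between these at EH25. Glyma.14G135400 went from 1.43 and 1.33 to 0.443 and 0.437 in UC7 (-1.24, SE 0.19, adjusted p = 0.00293) and from 1.45 and 1.23 to 0.390 and 0.331 in UC413 (-1.38, SE 0.19, adjusted p = 0.00137). These 4 calls held without each library in turn and under the other settings. The other 6 WRKY11-type genes were tested and not called.

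Glyma.14G199800 (WRKY4-type) fell from 2.01 and 2.54 to 0.891 and 0.890 in UC7 (-1.14, SE 0.16, adjusted p = 0.00206) and from 1.08 and 1.01 to 0.529 and 0.577 in UC413 (-0.69, SE 0.16, adjusted p = 0.0185). Glyma.19G177400 (WRKY3-type) fell from 26.7 and 33.4 to 17.3 and 15.7 in UC7 (-0.85, SE 0.21, adjusted p = 0.0298) and from 46.3 and 46.9 to 26.9 and 26.7 in UC413 (-0.79, SE 0.21, adjusted p = 0.0334). The TTG2-type Glyma.03G176600 fell from 15.7 and 22.4 to 12.5 and 10.6 in UC7 (-0.70, SE 0.19, adjusted p = 0.0423). In UC413 it had 33.2 and 31.4 at EH10 and 20.7 and 21.2 at EH50, which missed the threshold (-0.62, adjusted p = 0.0564). Of the 9 tested regulators of TTG2, 4 fell in UC7 (5.94% of all genes did) and 5 in UC413 (8.15%), among them the TT2-type Glyma.17G050500 (-1.58 and -2.54, adjusted p = 0.0087 and 0.000708) and the MYB5-type Glyma.17G143600 (-2.17 and -2.41, adjusted p = 0.00136 and 0.000725). The calls of Glyma.19G177400 in both isolines, Glyma.03G176600 in UC7 and Glyma.14G199800 in UC413 were lost when any 1 of 4 to 7 of the 8 EH10 and EH50 libraries was left out (adjusted p up to 0.264), with the library kit as a covariate and with RPKM as deposited, where that of Glyma.14G199800 in UC7 was lost too (adjusted p = 0.0578). That of Glyma.03G176600 was also lost without the filter.

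The 1 gene that rose in both isolines was the WRKY57-type Glyma.02G115200. It went from 3.54 and 2.73 to 8.12 and 4.99 in UC7 (0.98, SE 0.22, adjusted p = 0.0193) and from 1.81 and 2.11 to 4.62 and 3.56 in UC413 (0.97, SE 0.22, adjusted p = 0.0174), and had 10.1 and 6.96 in the EH100 libraries. The WRKY49-type Glyma.18G183100 rose in UC7 from 1.24 and 1.26 to 2.33 and 2.28 (0.77, SE 0.17, adjusted p = 0.017). In UC413 it had 1.63 and 1.53 at EH10 and 2.12 and 2.58 at EH50 (0.50, adjusted p = 0.0792). These calls missed the threshold without UC7 EH10 replicate 2 or UC7 EH50 replicate 1 (Glyma.02G115200 in UC7), without either UC413 EH10 library or UC413 EH50 replicate 1 (the same gene in UC413) and without any UC7 library of EH10 or EH50 (Glyma.18G183100), with adjusted p up to 0.15.

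Of the 7 WRKY23-type genes 3 were called as lower at EH50 than at EH10 in UC413, and 3 others had a positive change there. Glyma.02G010900, which was also far higher in UC413, changed by -0.13 (adjusted p = 0.837). In UC413 the log2 change from EH10 to EH50 was -1.29 for Glyma.07G238000 (SE 0.20, adjusted p = 0.00273), -1.09 for Glyma.09G034300 (SE 0.25, adjusted p = 0.0183) and -0.79 for Glyma.17G035400 (SE 0.20, adjusted p = 0.0274). In UC7 the same genes had 0.05, -0.32 and -0.14, none of them called. Their levels in UC7 were near or under the 0.25 added before log2, which makes changes there smaller. For Glyma.09G034300 the UC7 libraries held 14 and 17 alignments at EH10 and 2 and 7 at EH50. A fall in UC413 alone is therefore not shown for this gene. The test of the difference between these changes is the one given above, in which no member was called. The call of Glyma.07G238000 held without each library, and those of Glyma.09G034300 and Glyma.17G035400 were lost without either UC413 EH10 library, UC413 EH50 replicate 2 or, for the former, UC413 EH50 replicate 1 (adjusted p up to 0.189), and that of Glyma.09G034300 also with the kit as a covariate.

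**Figure D4:**
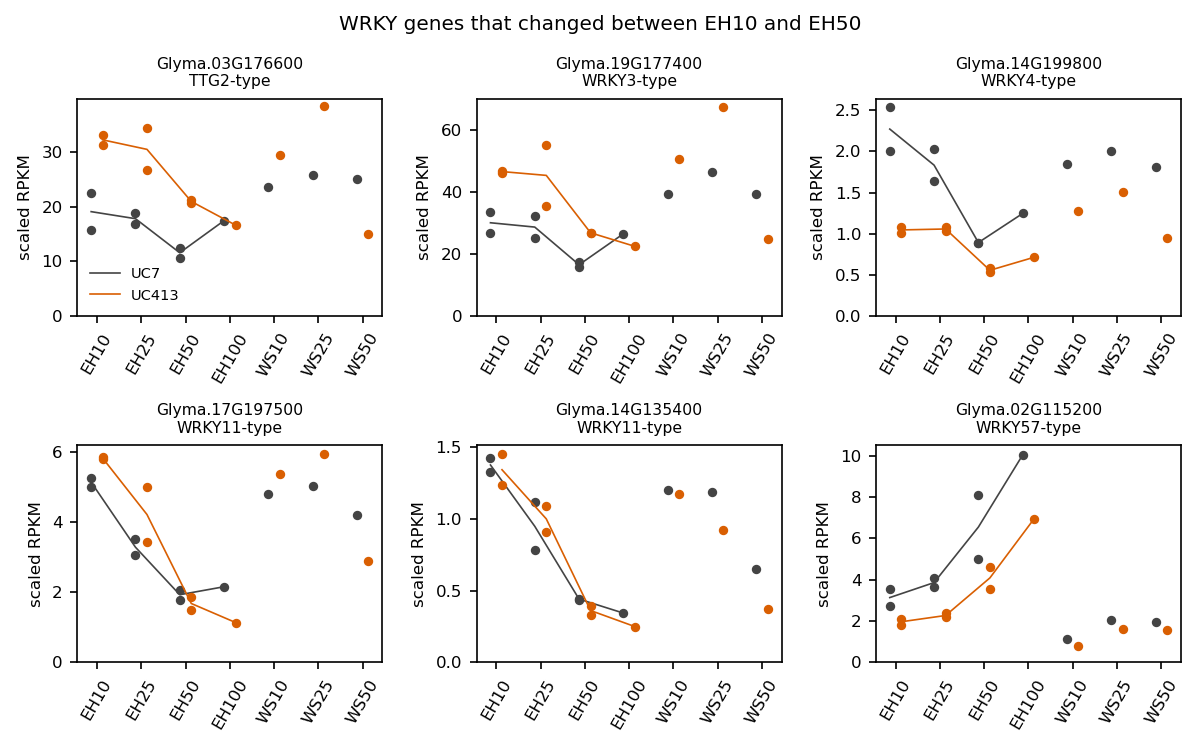
Scaled RPKM (vertical axes, from 0) of 6 WRKY genes that changed between EH10 and EH50 in 1 or both isolines. Each point is 1 library, UC7 in grey and UC413 in orange, and lines join the means of the EH stages. Glyma.17G197500 and Glyma.14G135400 fall in both isolines, Glyma.02G115200 rises in both, and Glyma.03G176600 is higher in UC413 up to EH50 and level at EH100.

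The region was examined by setting the extended hilum against whole seed coats, with the stage as a block. Whole seed coats had 1 library for each stage, so the difference is an average over 3 stages. In UC7, 5 of 82 tested members (6.1%) were higher in the extended hilum, where 14.4% of all genes were, and 7 (8.54%) were higher in whole seed coats, where 9.61% were. In UC413 it was 13 (15.9%) against 6.51%, and 3 (3.66%) against 5.09%. Of the 13, Glyma.07G238000, Glyma.08G118200, Glyma.09G034300, Glyma.10G138300, Glyma.17G035400 and Glyma.18G213200 reached the filter among the EH libraries through UC413 alone. The counts of UC413 and of its group IIc genes are therefore a description and no evidence about the family. With RPKM as deposited the split was 2 and 26 in UC7 and 9 and 3 in UC413. Single whole seed coat libraries moved the counts. In UC7 they became 3 and 1 without UC7 WS50, and the 7 became 4 without UC7 WS25. In UC413 they became 3 and 1 without UC413 WS10, 6 and 1 without UC413 WS25, and 4 and 0 without UC413 WS50, and the 3 became 5 without UC7 EH25 replicate 2.

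Members higher in the extended hilum were mostly of group IIc, which held all 5 in UC7 and 9 of the 13 in UC413, of 12 tested. Those of UC7 were the 2 WRKY57-type and the 2 WRKY49-type genes and Glyma.19G217800. Glyma.02G115200 (WRKY57-type) had 2.73 to 8.12 scaled RPKM in the 6 UC7 EH libraries and 1.12, 2.03 and 1.94 in WS10, WS25 and WS50, a log2 difference of 1.25 (SE 0.18, adjusted p = 0.000857), and in UC413 1.81 to 4.62 against 0.794, 1.62 and 1.57 (0.92, SE 0.18, adjusted p = 0.00725). Glyma.01G056800 (WRKY57-type) had 1.66 to 2.78 against 0.887, 1.22 and 0.905 in UC7 (0.91, SE 0.16, adjusted p = 0.00219) and was not called in UC413 (0.31, adjusted p = 0.238). Glyma.19G217800, the WRKY23-type gene that did not differ detectably between the isolines in the extended hilum, was higher there than in whole seed coats in UC7 (0.75, SE 0.14, adjusted p = 0.00308) and in UC413 (0.55, SE 0.14, adjusted p = 0.0221). The UC7 calls of these 3 genes held without each library, and that of Glyma.19G217800 in UC413 was lost without any 1 of 5 libraries (adjusted p up to 0.166). With RPKM as deposited Glyma.19G217800 was called in neither isoline, and the UC7 calls of the WRKY49-type genes Glyma.18G183100 and Glyma.07G133700 were lost as well, the latter also with the kit as a covariate and without any 1 of 10 libraries.

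In UC413 all 7 WRKY23-type genes were higher in the extended hilum than in whole seed coats. The call held in every fit for Glyma.07G238000, Glyma.10G011300 and Glyma.17G035400. It was lost without either of 2 whole seed coat libraries of UC413 for Glyma.02G010900 (WS10 and WS50, adjusted p up to 0.0543) and Glyma.09G034300 (WS10 and WS25, up to 0.117). That of Glyma.03G220800 held in 5 of 18 fits with a library left out (up to 0.309) and was lost with RPKM as deposited, without the filter and with the kit as a covariate. Glyma.17G035400 had 2.51 to 5.79 in the 6 EH libraries and 2.03, 1.03 and 1.27 in WS10, WS25 and WS50 (1.43, SE 0.16, adjusted p = 0.000395), and Glyma.07G238000 had 2.21 to 6.75 against 2.19, 0.899 and 1.12 (1.41, SE 0.15, adjusted p = 0.000271). Every EH library of UC413 lay above every WS library for both genes. In UC7 the same genes differed by -0.02 and 0.21 and were not called (adjusted p = 0.955 and 0.324). A test of the region difference between the isolines, which was chosen after the data had been seen, called Glyma.17G035400 (1.44, SE 0.23, adjusted p = 0.0411) and none of the other 81 members in either direction. Of all genes 0.0303% were called with a larger and 0.0212% with a smaller value in UC413. Glyma.07G238000 had 1.20 (SE 0.21, adjusted p = 0.0569). This test between the isolines was not repeated under the alternative settings or with a library left out. The WRKY70-type Glyma.18G213200 (1.46, SE 0.35, adjusted p = 0.0185) and the WRKY42-type Glyma.10G138300 (1.05, SE 0.26, adjusted p = 0.0209) were also higher in the extended hilum of UC413, and their calls were lost without any 1 of its whole seed coat libraries.

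Members higher in whole seed coats in both isolines were the WRKY22-type genes Glyma.09G254800 and Glyma.18G238200 and the WRKY4-type gene Glyma.10G171100. WRKY22 acts in the response to flagellin in Arabidopsis. Glyma.18G238200 had 6.29, 9.26 and 2.73 in UC7 WS10, WS25 and WS50 and 1.64 to 5.70 in the UC7 EH libraries, where 5.70 was UC7 EH25 replicate 1 (log2 -1.02, SE 0.30, adjusted p = 0.0271). In UC413 it had 3.38, 2.83 and 3.51 against 0.888 to 1.71, with no overlap (-1.27, SE 0.30, adjusted p = 0.0172). Glyma.09G254800 differed by -0.78 in UC7 (SE 0.24, adjusted p = 0.0308) and -1.15 in UC413 (SE 0.24, adjusted p = 0.00834). Glyma.10G171100 was low, with 0.621 to 1.73 in the UC7 whole seed coats and 0.220 to 0.471 in the UC7 extended hilum (-1.04, SE 0.26, adjusted p = 0.0143) and -0.93 in UC413 (adjusted p = 0.0393). The calls of these 3 genes were lost without 1 or more of the whole seed coat libraries of the same isoline, and some of them without an extended hilum library (adjusted p up to 0.206), and that of Glyma.10G171100 in UC413 also with a pseudocount of 1. Embryo or cotyledon markers were also higher in whole seed coats in part (7 of 22 tested genes in UC7, where 9.61% of all genes were, and 10 in UC413, where 5.09% were), and their part in these differences was not tested.

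In UC7 alone 4 more members were higher in whole seed coats. The TTG2-type Glyma.03G176600 had 23.6, 25.8 and 25.1 in UC7 WS10, WS25 and WS50 against 10.6 to 22.5 in the extended hilum (-0.65, SE 0.17, adjusted p = 0.0162), and in UC413 29.6, 38.4 and 15.1 against 20.7 to 34.4 (0.08, adjusted p = 0.824). The WRKY3-type Glyma.19G177400 behaved alike, with 39.3, 46.4 and 39.3 against 15.7 to 33.4 in UC7 (-0.78, SE 0.18, adjusted p = 0.00914) and no call in UC413 (-0.20, adjusted p = 0.538). The WRKY33-type Glyma.11G163300 (-1.64, SE 0.40, adjusted p = 0.0119) had 3.86 in UC7 WS25 and 0.370 and 0.486 in WS10 and WS50, and the WRKY6-type Glyma.07G262700 differed by -0.70 (SE 0.18, adjusted p = 0.0177). Without UC7 WS50 none of the 4 was called (adjusted p up to 0.183). Without UC7 WS25 the call of Glyma.11G163300 was lost, and without UC7 WS10 that of Glyma.07G262700.

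**Figure D5:**
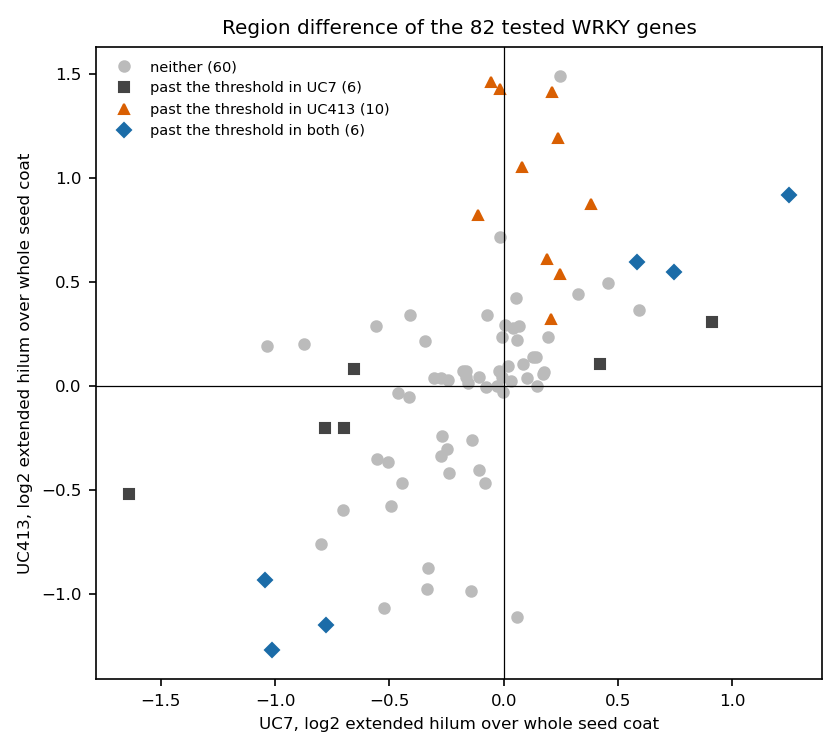
log2 difference of the extended hilum over whole seed coats in UC7 (horizontal axis) and UC413 (vertical axis) for the 82 tested WRKY genes, averaged over 3 stages. Each point is 1 gene, and the marker shows where the adjusted p was under 0.05. The 6 genes called in both isolines lie in the upper right and lower left, and the 10 called in UC413 alone lie above 0 for UC413 and between -0.11 and 0.38 for UC7.

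Between the whole seed coats of the isolines 3 of 82 members (3.66%) were higher in UC413, where 0.506% of all genes were, and none was higher in UC7, where 0.212% of all genes were. All 3 were WRKY23-type. Glyma.17G035400 and Glyma.07G238000 among them reached the filter in the EH libraries through UC413 alone, so the count is a description. Without UC7 EH25 replicate 2 the count was 5. With limma-voom 4 were higher and 0 lower, and 3 members were lower in UC413 at an unadjusted p under 0.05. Glyma.17G035400 had 2.03, 1.03 and 1.27 in UC413 WS10, WS25 and WS50 and 0.126, 0.346 and 0.288 in UC7 (1.74, SE 0.19, adjusted p = 0.000664). Glyma.07G238000 had 2.19, 0.899 and 1.12 against 0.169, 0.234 and 0.216 (1.78, SE 0.17, adjusted p = 0.000313). Both calls held without each library. Glyma.02G010900 had 4.17, 4.19 and 3.91 against 0.960, 2.77 and 0.878 (1.44, SE 0.28, adjusted p = 0.0322), and was lost without any 1 of 8 libraries (adjusted p up to 0.229) and without the filter. The isolines did not overlap for any of the 3 genes. The VQ-motif gene Glyma.14G172200 was higher in UC413 here too (1.22, SE 0.18, adjusted p = 0.00664).

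Many members were high in 3 UC7 libraries. These are comparisons of single libraries with no replicate, given by the ratio of scaled RPKM with 0.25 added, for genes of at least 1 scaled RPKM on 1 side. In UC7 EH25, 33 of 71 members were at least 2-fold higher in replicate 1 than in replicate 2, where 6.33% of all genes were, and 0 were lower, where 1.6% of all genes were. At WS25, 35 of 77 members were at least 2-fold lower in UC413 than in UC7 (6.65% of all genes) and 1 was higher (0.996%). At EH100, 32 of 75 were lower in UC413 (7% of all genes) and 7 were higher (1.81%). For UC7 EH25 replicate 1, UC7 WS25 and UC7 EH100 the share of higher members was above that of all genes. The first of these comparisons lies within UC7 and is not a difference between the isolines. From EH50 to EH100, 35 of 72 members rose at least 2-fold in UC7 (6.26% of all genes) and 0 fell (5.14%), and in UC413 it was 2 of 62 (1.18%) and 0 (2.17%). At WS10, 4 of 65 members were higher in UC413 (0.986%) and 6 lower (1.87%). Members at least 2-fold higher in UC7 EH25 replicate 1, UC7 WS25 and UC7 EH100 alike numbered 24 (72.7% of the 33, 68.6% of the 35 and 75% of the 32). These 3 comparisons share no library. The overlap over all genes was not counted, so the 24 are no result about the family.

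By subfamily, those at least 2-fold higher in UC7 EH25 replicate 1 were 7 of 8 members of group III, 3 of 4 of IIa, 3 of 3 of IIb, 5 of 7 of IIe, 7 of 14 of IId, 7 of 27 of group I and 1 of 8 of IIc. The 7 group I genes were all WRKY33-type, a type that in Arabidopsis is needed for camalexin and for resistance to fungi that kill plant tissue. Glyma.14G200200, the highest WRKY33-type gene, had 31.1 and 7.26 in UC7 EH25 replicates 1 and 2, 33.9 in UC7 WS25 and 43.9 in UC7 EH100, against 4.86 and 4.73, 7.38 and 13.9 in UC413. Glyma.02G232600 (WRKY33-type) had 27.2 in replicate 1 and 3.28 in replicate 2. In group III the WRKY53-type Glyma.05G215900, of a type that promotes leaf senescence in Arabidopsis, had 8.17 and 0.993 in the 2 replicates and 29.3 in UC7 EH100 against 1.77 in UC413 EH100. The WRKY40-type genes, which repress defence and abscisic acid responses in Arabidopsis, were highest in UC7 EH100, where Glyma.07G023300 had 64.4 against 21.6 in UC413 and Glyma.08G218600 57.5 against 16.3.

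The 7 members that were at least 2-fold higher in UC413 at EH100 were 4 WRKY23-type genes, both WRKY70-type genes and the WRKY42-type gene. Glyma.02G010900 and Glyma.09G274000 among them were also at least 2-fold higher in UC7 EH25 replicate 1 than in replicate 2. Glyma.17G035400 had 4.03 against 0.324, Glyma.07G238000 3.32 against 0.284, Glyma.02G010900 13.3 against 3.36 and Glyma.10G011300 12.3 against 4.04. Glyma.18G213200 had 3.67 against 0.644, Glyma.09G274000 10.9 against 4.86 and Glyma.10G138300 1.86 against 0.298. At WS50 the isolines stood the other way round from WS25, with 18 of 65 members at least 2-fold higher in UC413 (2.93% of all genes) and 1 lower (2.44%), among them 6 of 7 members of group III.

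The 3 UC7 libraries also differed from their partners in other genes. Embryo or cotyledon markers summed to 84.6 and 36.7 in UC7 EH25 replicates 1 and 2, to 107.1 in UC7 WS25 against 56.6 in UC413 WS25, and to 919.7 against 287.2 at EH100. The VQ-motif genes summed to 197.3 and 104.9, 184.2 against 111.7, and 194 against 90.3 in the same order. A large part of these gaps came from the CAMBP25-type Glyma.03G120700, with 72.8 and 30.8, 78.2 against 31.6, and 86.9 against 30.9. The NPR1-, NPR3-, EDS1-, PAD4- and SAG101-type genes summed to 69.09 and 33.05, 77.24 against 30.45, and 123.3 against 64.55. The part of these differences between the libraries in the WRKY levels was not tested.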

How the data were processed

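Levels of 88647 soybean gene models in 20 RNA-Seq libraries were taken from the table the authors deposited, in RPKM (reads per length of transcript and per mapped total). Per the labels and the methods of the study, reads were aligned with Bowtie to the Wm82.a2 transcript models allowing 3 mismatches and keeping at most 25 placements of each read, so near-identical copies share reads. Kits did not mark strand for EH50 replicate 1, EH100 and WS50 of both isolines, and there antisense reads cannot be told apart. Low values were whole multiples of 1 alignment for 100% of models (tolerance 0.01 alignments), which gave 91768975 to 128803969 alignments per library. Limits from counts cover counting error only.

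RPKM were divided by size factors (median of ratios over the 12 EH libraries of EH10 to EH50). log2(value + 0.25) was fitted with limma 3.58.1 in R 4.3.3 (with the data.table package, version 1.17.8), with a mean trend, for models that reached an RPKM of 1 in 2 or more libraries: 57568 models in 12 libraries (6 groups of 2) for isoline and stage, and 59783 in 18 for region, with stage as a block within each isoline. P-values were two-sided and adjusted by Benjamini-Hochberg over all models tested; shares of all genes use 1 model per gene. Replicates are described as independent, but nothing states that they came from separate plants, so p-values measure the spread between these libraries. Deviations from group means of libraries with the same replicate number correlated at the same stage (r = 0.193, 0.226 and 0.468 for EH10, EH25 and EH50). Between stages r was -0.425 to 0.233, so the EH10 and EH25 values lie within that range. At EH50 the kit differed between replicates 1 and 2 in both isolines, so pairing and kit cannot be told apart there. These values do not show that the numbers pair the isolines, and a fit with the replicate as a block was only an alternative. The others were RPKM as deposited, a pseudocount of 1, no filter, limma-voom on the recovered alignments, the kit as a covariate, and each library left out. The scripts were tested on simulated data.

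Members named by rule were the TTG2-type gene and Glyma.09G034300, the 10 with the highest mean level, the 6 called members highest and lowest by fold change for each isoline comparison of a stage, and the 3 highest and lowest for each other comparison. The other genes named were chosen after their values were seen. The members, the rule and the lists of related genes were chosen with earlier results of these data known. Sequences and coordinates were not used here.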

Additional observations from a re-analysis of the deposited data

Results flagged for a closer look

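The region difference of the WRKY23-type Glyma.17G035400 differed between the isolines. The extended hilum exceeded whole seed coats by 1.43 on the log2 scale in UC413 and by -0.02 in UC7. The test of the difference itself gave 1.442 (SE 0.23, limma adjusted p = 0.0411 over all models). It was chosen after the data had been seen and was not repeated under the alternatives. The gene reached the filter in the EH libraries through UC413 alone, and its UC7 levels were near the 0.25 added before log2, which makes changes there smaller. All 6 EH libraries of UC413 lay above its 3 whole seed coat libraries, while those of UC7 overlapped.

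The single UC7 EH100 library, which enters no test, had the highest summed level of the WRKY genes of all libraries, 802.4 scaled RPKM, against 477.7 in UC413 EH100 and 279.8 to 522.3 in the 12 EH libraries of the earlier stages. With 1 library there is no test of this difference. Embryo or cotyledon markers were also highest there, at 919.7 scaled RPKM summed over 33 genes, and their part in the result was not tested.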

How the results depend on the processing

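Of 76 calls of a WRKY gene in a comparison, 21 held in every alternative, 23 without each library in turn and 52 under all other settings, and none of these genes changed sign. With RPKM as deposited, which moved the median of all genes by 0.73 at EH10, 0.34 at EH25, 0.26 at EH50, 0.40 for stage in UC7 and -0.39 for region in UC7, 50 members were higher and 0 lower in UC413 at EH10, 0 were lower at EH50, 11 rose and 2 fell in UC7, 2 were higher and 26 lower in the extended hilum of UC7, and 9 higher in UC413. Without the filter 11 members fell with stage in UC413, 12 were lower in the extended hilum of UC7 and 5 lower in that of UC413. With the kit as a covariate 1 member was lower in UC413 at EH25, 3 fell with stage in UC7 and 4 in UC413. With a pseudocount of 1 and with limma-voom 3 members rose with stage in UC413. With the replicate block, 12 members were higher and 3 lower at EH10, 6 higher and 1 lower at EH25, and 13 higher and 1 lower at EH50. It added Glyma.09G254800 (adjusted p = 0.0404) and Glyma.19G177400 (0.0336) at EH10, Glyma.01G056800 (0.0381) at EH25, and Glyma.01G189100 (0.031), Glyma.05G160800 (0.0494), Glyma.14G006800 (0.0425) and Glyma.19G177400 (0.0271) at EH50, removed Glyma.03G220800 (0.057) at EH25, and changed no other call between the isolines.

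With a library left out, members higher in UC413 ranged from 5 to 16 at EH10, 2 to 11 at EH25, 2 to 15 at EH50 and 2 to 5 in whole seed coats, and those lower from 0 to 2, 0 to 18, 0 to 5 and 0 to 0. Members that rose with stage ranged from 0 to 10 in UC7 and 0 to 6 in UC413, and those that fell from 3 to 5 and 3 to 12. Members higher in the extended hilum ranged from 3 to 7 in UC7 and 3 to 16 in UC413, and those lower from 1 to 8 and 0 to 5. The cause of these shifts was not tested. With 2 libraries per group and 1 per whole seed coat stage, differences of about 2-fold were often below what the test could call, and members under about 0.03 RPKM rest on few alignments.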
